A study of Mus musculus with 23 samples.

Results

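The 10 transcripts described here are messenger RNAs of the mouse mitochondrial genome that encode subunits of the respiratory chain. They are mt-Nd1, mt-Nd2, mt-Nd3, mt-Nd4, mt-Nd5 and mt-Nd6 of complex I, mt-Cytb of complex III, and mt-Co1, mt-Co2 and mt-Co3 of complex IV. The members were taken by gene name on chromosome MT and were found in both deposited tables, as 10 of 26522 genes listed in either table and of 22852 listed in both. They were chosen because the mitochondrial share of the counts was higher in the knockout livers, so their knockout against control values are a description and carry no test. The tables held 34 genes of chromosome MT in all. The comparison between the sexes was not used in the choice and was tested.

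The study sequenced poly(A)-selected RNA from whole livers of male and female mice and asked what ablation of hepatic Cpt1a changes. Cpt1a encodes the liver carnitine palmitoyltransferase that passes long-chain fatty acids to the carnitine shuttle for entry into mitochondria. The genotypes are named B100-Control and B100-LKO, and all 4 groups share the B100 designation, the diet labelled WD for 16 weeks, and collection of the liver in the fed state. There were 5 control males (replicates 1, 2, 3, 4 and 6), 6 LKO males, 6 control females and 6 LKO females, or 23 livers. How the deletion was made, which cells carried it and the age of the mice are not given in the sources used here. Males and females were deposited in separate tables, so sex and table cannot be told apart. Replicates are taken to be separate livers from their labels, and p-values measure the spread between these samples.

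Mitochondrial DNA is transcribed as long precursors from both strands, and these are cut into single messenger, transfer and ribosomal RNAs by enzymes that recognise the transfer RNAs lying between the genes. The messenger RNAs are translated inside the organelle by its own ribosomes, and their products join subunits encoded in the nucleus to form complexes I, III, IV and V. Complex I takes electrons from NADH, complex III passes them to cytochrome c, and complex IV hands them to oxygen. In the liver this chain drives ATP synthesis and re-oxidises the reducing equivalents made by fatty acid oxidation.

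The targeted gene separated the groups. Cpt1a was at 356 ± 60.01 counts per 1e6 counts of the library total (CPM) in control males (SD, n = 5) and 64.6 ± 18.5 in LKO males (SD, n = 6), a log2 difference of -2.50 (SE 0.19, edgeR adjusted p = 9.97e-05). In females it was at 378 ± 62.6 and 75.999 ± 9.35 (SD, n = 6 each), a log2 difference of -2.35 (SE 0.12, edgeR adjusted p = 3.69e-08). Library totals ran from 14224665 to 18361717 counts in males and from 15174756 to 19626662 in females, and the 10 members together took 608275 to 923680 counts in each liver. The hepatocyte marker list summed to between 60804 and 103765 CPM in every liver, and both skeletal muscle markers summed to at most 0.899 CPM. Adipose markers summed to 1.05 to 44.0 CPM in control males (median 24.1) and 4.36 to 26.1 in LKO males (median 7.37). They summed to at most 2.92 CPM in control females and 6.32 in LKO females. Erythroid markers summed to between 206 and 1254 CPM. In bulk liver, fewer cells of a type and less RNA per cell cannot be told apart.

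Several members have near copies in nuclear DNA, and the sequences below show how close these are, because a read from a shared stretch cannot be placed on one or the other by its bases. Each mitochondrial stretch is followed by the same stretch of the closest nuclear transcript, written 5′ to 3′ from the GENCODE M21 transcripts, and capitals mark the bases that differ. In the mt-Nd4 stretch the capitals mark the 30 bases that lie beyond the end of the copy.
mt-Co2: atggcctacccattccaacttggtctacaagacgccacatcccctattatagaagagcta
Gm28661: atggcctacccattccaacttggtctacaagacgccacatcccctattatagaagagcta
mt-Nd3: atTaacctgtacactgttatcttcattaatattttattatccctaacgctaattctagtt
Gm28438: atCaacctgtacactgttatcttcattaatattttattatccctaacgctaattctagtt
mt-Co1: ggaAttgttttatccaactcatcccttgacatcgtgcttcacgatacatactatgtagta
Gm29216: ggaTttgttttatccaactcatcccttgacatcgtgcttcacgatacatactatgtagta
mt-Nd4: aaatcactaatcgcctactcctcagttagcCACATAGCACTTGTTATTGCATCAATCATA
Gm28439: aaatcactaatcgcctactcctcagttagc
mt-Cytb: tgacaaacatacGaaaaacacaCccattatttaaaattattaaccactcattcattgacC
Gm11410: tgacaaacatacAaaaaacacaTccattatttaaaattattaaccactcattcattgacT
The mitochondrial stretches lie at chrM:7013-7072 (mt-Co2), chrM:9459-9518 (mt-Nd3), chrM:6390-6449 (mt-Co1), chrM:11013-11072 (mt-Nd4) and chrM:14146-14205 (mt-Cytb), all on the plus strand. Counted from 1 at the 5′ end of the mitochondrial transcript, with the mitochondrial base first, the differences are T3C in mt-Nd3, A1066T in mt-Co1, and G14A, C24T and C61T in mt-Cytb.

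The copies of mt-Co1, mt-Co2, mt-Co3, mt-Nd3 and mt-Nd4 lie next to each other on the minus strand of chromosome 1. Positions on chromosome 1 are those of the deposited tables, for which the processing notes name mm39. The copy of mt-Co2, Gm28661 (chr1:24653966-24654646), was identical over 681 bases, and that of mt-Co3, Gm28437 (chr1:24652270-24653052), over 783 bases. Gm28438 (chr1:24651856-24652200) matched mt-Nd3 over 345 bases with 1 mismatch. Gm28439 held the first 876 bases of mt-Nd4, and Gm29216 held mt-Co1 from base 1063 to its end at base 1545. Taken as all stretches of 100 bases, the share that occurs unchanged in a nuclear transcript was 99.9% for mt-Co3, 99.5% for mt-Co2, 97.6% for mt-Nd3, 60.8% for mt-Nd4, 30.8% for mt-Co1 and 3.19% for mt-Nd2. For mt-Nd1, mt-Nd5, mt-Nd6 and mt-Cytb it was 0. With stretches of 50 bases it was 51.1% for mt-Co1, 8.19% for mt-Nd2 and 7.61% for mt-Nd5, and it stayed at 0 for mt-Nd1, mt-Nd6 and mt-Cytb. The closest copy of mt-Nd5, Gm4076, aligned over 954 bases at 95.2% identity.

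The members lie between positions 2751 and 15288 of chromosome MT. In order these are mt-Nd1 (2751 to 3707), mt-Nd2 (3914 to 4951), mt-Co1 (5328 to 6872), mt-Co2 (7013 to 7696), mt-Co3 (8607 to 9390), mt-Nd3 (9459 to 9806), mt-Nd4 (10167 to 11544), mt-Nd5 (11742 to 13565), mt-Nd6 (13552 to 14070) and mt-Cytb (14145 to 15288). Each is a single uninterrupted coding exon in the annotation. mt-Nd6 is the member on the minus strand, and its annotated end overlaps that of mt-Nd5. The libraries marked strand with dUTP, but whether the counting used it is not given in the sources used here, so mt-Nd6 reads and reads antisense to it cannot be told apart. The base composition of mt-Nd6 differed from the rest, with 28.1% G and 5.97% C in its coding strand, against 7.996 to 16.1% G and 22.1 to 27.7% C in the other 9 members. In 3 members, mt-Nd4, mt-Co3 and mt-Cytb, the annotated sequence ends 1 base after the last whole codon, where the stop codon of mitochondrial messages is completed by the poly(A) tail.

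Counts divided by transcript length spread widely among the members. In counts per kilobase and per 1e6 counts of the library, averaged over the 23 livers, mt-Co1 stood at 10467 (9179 to 11781), mt-Cytb at 8381 (6551 to 9652), mt-Nd1 at 6699.6 (5612 to 7874) and mt-Nd2 at 5417 (4282 to 6999.5). The middle of the order held mt-Nd4 at 3290.4 (2512 to 4086), mt-Nd6 at 2424 (1694 to 3045) and mt-Nd5 at 963 (728 to 1263). At the foot stood mt-Co2 at 238 (159 to 539), mt-Co3 at 167 (78.1 to 621) and mt-Nd3 at 30.0 (18.3 to 70.2). Each neighbour in this order stood above the next in 23 of 23 livers, except mt-Co2 over mt-Co3, which held in 20. The ranges over livers did not overlap between mt-Nd2 and mt-Nd4, mt-Nd6 and mt-Nd5, mt-Nd5 and mt-Co2, or mt-Co3 and mt-Nd3, while the other neighbours overlapped.

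The 3 members at the foot of the order were the 3 with a nearly whole nuclear copy. Members with at least 90% of their 100-base stretches shared stood at 30.0 to 238 on this scale. Those with no 100-base stretch shared stood at 963 to 8381, and those with some at 3290.4 to 10467. Of the mitochondrial messages outside the 10, mt-Atp6 and mt-Nd4l, which encode subunits of complexes V and I, also had nearly whole copies (99.5% and 98.5%) and stood at 182 and 26.8 per kilobase. mt-Atp8, another subunit of complex V, had 0% of its 100-base stretches shared and was the lowest of the 13 messages at 4.09. Its bases 162 to 204 (43 bases) were identical to the start of Gm10925, the copy of mt-Atp6. The search covered annotated nuclear transcripts only, so copies in nuclear DNA between them would not be seen. Since a shared read may be dropped or assigned to the copy by the counting, whose rules are not given in the sources used here, the levels of these transcripts are uncertain. The level of mt-Co3 relative to mt-Co1 should not be read as their relative abundance. Gm28661 itself was listed at 117 ± 11.04 CPM in control males (SD, n = 5), 114 ± 13.3 in LKO males, 104 ± 5.27 in control females and 118 ± 22.4 in LKO females (SD, n = 6 each), similar in size to mt-Co2.

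**Figure D1:**
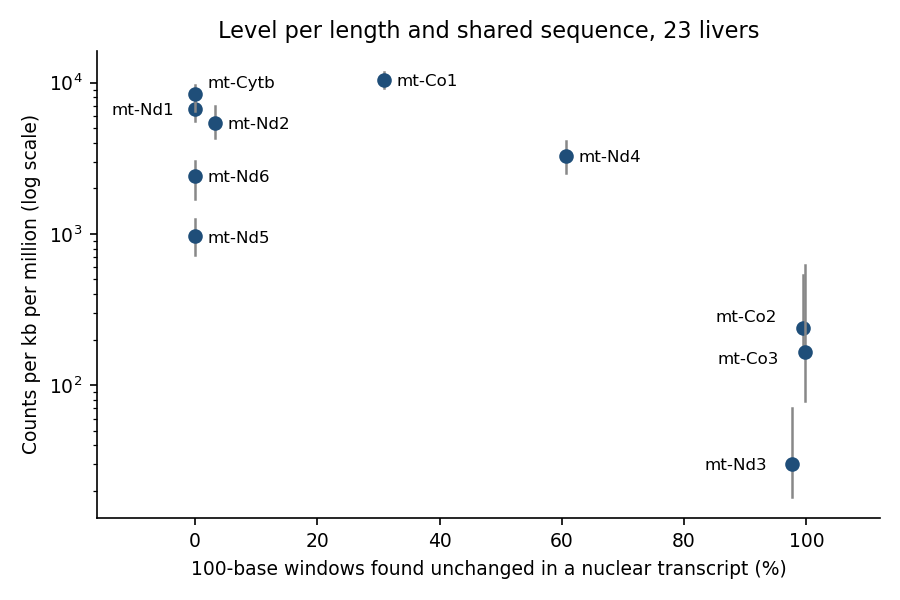
Level of the 10 members against the share of their 100-base stretches found unchanged in a nuclear transcript. The x axis gives that share in percent and the y axis, on a log scale, the counts per kilobase and per 1e6 counts of the library, with the mean over 23 livers as a point and the lowest and highest liver as a line. mt-Co2, mt-Co3 and mt-Nd3 sit at the right with levels of 30.0 to 238, below the 963 to 10467 of the other 7 members.

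Summed over the 10 members, the share of the library was higher on average in LKO than in control livers of both sexes. In control males 1, 2, 3, 4 and 6 it was 4.51%, 4.33%, 4.29%, 4.89% and 4.46% (mean 4.49 ± 0.238, SD, n = 5). In LKO males the lowest, median and highest livers were at 4.71%, 4.80% and 4.98% (mean 4.83 ± 0.114, SD, n = 6). Control male 4 lay inside the range of the LKO males and the other 4 control males lay below it. In control females the share ran from 3.95% through 4.18% to 4.47% (mean 4.18 ± 0.229), and in LKO females from 4.43% through 4.72% to 5.04% (mean 4.74 ± 0.226, SD, n = 6 each). LKO female 2, at 4.43%, lay just below control female 6, at 4.47%, and the groups otherwise did not overlap.

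The LKO mean was thus 7.48% above the control mean in males and 13.2% above it in females. In males the size of this difference depended on the scaling. It was 2.76% with the library total scaled by edgeR's TMM factor and 2.31% on the authors' normalized counts, with TMM factors that averaged 0.981 in control males (0.870 to 1.07) and 1.02 in LKO males (0.960 to 1.08). In females the same scalings gave 10.3% and 9.99%. In LKO females, 4 of the 5 lipid-associated macrophage markers (Gpnmb, Trem2, Spp1 and Lpl) were also called higher, where edgeR called 1.42% of all genes. The list summed to 73.3 to 111 CPM in control females and 137 to 207 in LKO females. In males the same list summed to 80.8 to 312 and 108 to 390 CPM with no call. edgeR called 1 of 13805 genes in males, so the absence of calls there says little about any list. None of the other 12 lists of cell type and nuclear RNA markers had a called gene in either sex, except Spp1 again among the cholangiocyte markers in females. The part of these cell types in the mitochondrial share was not tested.

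**Figure D2:**
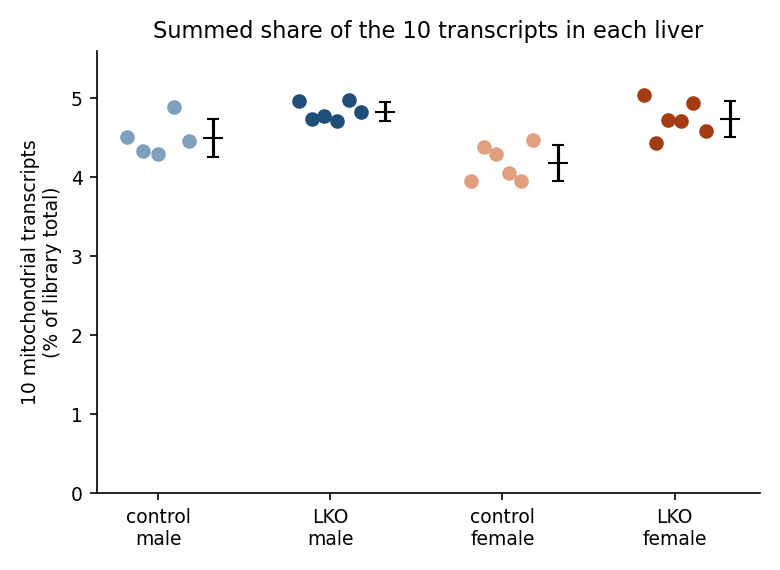
Share of the library total taken by the 10 members, in percent, for each of the 23 livers by group. Points are livers and the bar and whiskers are the mean and SD. LKO means of 4.83% and 4.74% stand above control means of 4.49% and 4.18%, with control male 4 and LKO female 2 in the overlap.

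The members did not contribute alike. The share of all 10 is dominated by mt-Co1, the catalytic subunit of cytochrome c oxidase, which made up 33.7 ± 1.91% of the members' counts in control males (SD, n = 5), and by mt-Cytb, the cytochrome b of complex III, which made up 21.7 ± 0.769%. In males the means that moved most in CPM were those of mt-Co1 (15132 in control and 17061 in LKO livers), mt-Cytb (9729.6 and 10387) and mt-Nd5 (1415 and 1949). In females they were those of mt-Cytb (8067 and 10192), mt-Nd2 (4756 and 5948), mt-Nd4 (3791 and 4813) and mt-Nd1 (5861 and 6805). Without mt-Nd2, mt-Co1, mt-Co2 and mt-Co3 the difference in the summed share of females was 21.5% in place of 13.2%.

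Of the complex I members, mt-Nd5 encodes a proton-pumping subunit of the membrane arm. Its level in control males 1, 2, 3, 4 and 6 was 1349, 1367, 1491, 1541 and 1328 CPM, and in LKO males it ran from 1568 through 1960.1 to 2304 (mean 1949 ± 251, SD, n = 6). All 6 LKO males lay above the highest control male, the mean was 37.7% higher, and the edgeR log2 difference was 0.40 (SE 0.12). mt-Nd5 was the 1 member whose groups did not overlap in males. Of all 13805 genes tested in males, 0.934% were higher and 0.616% lower without overlap, and nothing is read from the comparison because the members were chosen on this contrast. In females mt-Nd5 ran from 1469.9 through 1739 to 1969.8 CPM in controls and from 1565 through 1919 to 2119.5 in LKO livers, so the groups overlapped widely (log2 difference 0.07, SE 0.10).

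mt-Nd4, another proton-pumping subunit, separated the groups in females and not in males. In control males it was at 4845, 4350.4, 4255, 5325 and 4868 CPM, and in LKO males it ran from 4659.8 through 4857 to 4959.8, inside the control range (log2 difference -0.03, SE 0.12). In females it ran from 3462 through 3788 to 4091 CPM in controls and from 4386 through 4722 to 5631 in LKO livers. Every LKO female lay above every control female, with a mean 27.0% higher and a log2 difference of 0.31 (SE 0.10). The ratio of mt-Nd5 to mt-Nd4 counts was 0.301 ± 0.0319 in control males (SD, n = 5), 0.403 ± 0.0501 in LKO males, 0.457 ± 0.0450 in control females and 0.395 ± 0.0736 in LKO females (SD, n = 6 each). The 2 neighbours on the same strand thus did not keep 1 ratio across the 4 groups, and the control males held the lowest mean.

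mt-Nd2, the third proton-pumping subunit among the members, followed mt-Nd4. It was at 5791, 5490.2, 5549.5, 7265 and 5561 CPM in control males, and it ran from 5555 through 5939 to 6257 in LKO males, with control male 4 above all of them. The log2 difference in males was -0.07 (SE 0.13), and without control male 4 it was 0.06. In females mt-Nd2 ran from 4445 through 4782 to 5067 CPM in controls and from 5427 through 5767 to 6983 in LKO livers, without overlap (log2 difference 0.29, SE 0.10). mt-Nd1, which lies where the quinone-binding and membrane parts of complex I meet, was at 6685, 5671, 6519.6, 7003 and 6553 CPM in control males and from 6025 through 6368 to 7536 in LKO males. The male groups overlapped, and 5 of the 6 LKO males lay inside the control range (log2 difference -0.06, SE 0.11). In females mt-Nd1 ran from 5371 through 5889 to 6239 CPM in controls and from 6327 through 6688 to 7445 in LKO livers, again without overlap (log2 difference 0.18, SE 0.09).

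The remaining complex I members were mt-Nd6 and mt-Nd3, both small membrane-arm subunits. mt-Nd6 was at 1201, 879, 1173, 1387 and 1402 CPM in control males and ran from 1258 through 1355 to 1580.4 in LKO males, 3 of which lay above the highest control (log2 difference 0.11, SE 0.14). In females it ran from 1000.1 through 1103 to 1225 CPM in controls and from 1205 through 1317 to 1443 in LKO livers, with 5 of 6 LKO females above the highest control (log2 difference 0.20, SE 0.09). The minus-strand member thus stood higher on average in LKO livers of both sexes, with overlap in each.

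mt-Nd3 rested on 109 to 390 counts per liver. It was at 7.98, 9.07, 7.48, 8.58 and 9.42 CPM in control males and ran from 8.55 through 10.7 to 13.3 in LKO males, 5 of which lay above the highest control (log2 difference 0.31, SE 0.15). In control females it ran from 6.36 through 7.67 to 24.4 CPM, and in LKO females from 6.99 through 11.9 to 13.9. The high value was that of control female 4, and the log2 difference in females was 0.05 (SE 0.29) with it and 0.48 without it. Its copy Gm28438 was at 12.3 CPM in that liver, and was also high in control females 2 and 6, at 13.6 and 12.4, where mt-Nd3 was not.

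mt-Cytb was at 9873, 9309.9, 9248, 10081 and 10136 CPM in control males and ran from 9949 through 10425 to 10873 in LKO males, 4 of which lay above the highest control (log2 difference 0.03, SE 0.10). In females it ran from 7494 through 7969.9 to 8642 CPM in controls and from 9530.1 through 10007 to 11042 in LKO livers. The female groups did not overlap. Their means were 8067 ± 463 and 10192 ± 585 (SD, n = 6 each), 26.3% apart, with a log2 difference of 0.30 (SE 0.10). mt-Nd1, mt-Nd2, mt-Nd4 and mt-Cytb were the 4 members whose groups did not overlap in females, all of them higher in LKO livers. Of all 13684 genes tested in females, 1.31% were higher and 0.387% lower without overlap, from which nothing is read for the reason given for males.

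mt-Co1 behaved differently from mt-Cytb. It was at 14910.4, 16001, 14428, 16037 and 14282 CPM in control males and ran from 15974 through 17243 to 18199.5 in LKO males, 5 of which lay above the highest control (log2 difference 0.11, SE 0.11). In females it ran from 14182 through 15974 to 18202 CPM in controls and from 15036 through 15891 to 17015 in LKO livers, which lay wholly inside the control range (log2 difference -0.06, SE 0.10). As a share of the members' counts, mt-Co1 was at 38.8 ± 1.93% in control females (35.9 to 41.5) and 33.9 ± 1.28% in LKO females (31.7 to 35.5), without overlap. The ratio of mt-Co1 to mt-Cytb was 1.56 ± 0.113 in control males (SD, n = 5), 1.64 ± 0.0849 in LKO males, 2.02 ± 0.177 in control females (1.78 to 2.28) and 1.58 ± 0.0765 in LKO females (1.45 to 1.68; SD, n = 6 each). In this ratio control females did not overlap any other group, since their lowest value exceeded the highest of the control males (1.72), the LKO males (1.75) and the LKO females (1.68).

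mt-Co2, which carries the copper centre that accepts electrons from cytochrome c, and mt-Co3 are, with mt-Nd3, the members that have a nearly whole nuclear copy. mt-Co2 was at 234, 129, 135, 149.7 and 192 CPM in control males and ran from 125 through 134 to 251 in LKO males (log2 difference -0.14, SE 0.21). In females it ran from 109 through 123 to 181 CPM in controls and from 118 through 166 to 368 in LKO livers. LKO female 6 held the highest value, and the log2 difference of 0.50 (SE 0.23) was 0.23 without it. mt-Co3 was at 198, 75.2, 100.2, 94.5 and 219 CPM in control males and ran from 88.1 through 110.4 to 161 in LKO males (log2 difference -0.33). In females it ran from 64.8 through 83.0 to 195 CPM in controls and from 61.2 through 103 to 487 in LKO livers, with 1 liver far above the rest in each group. The log2 difference of 0.80 (SE 0.48) was 0.16 without LKO female 5. For both transcripts the groups overlapped in both sexes, and single livers set the size of the difference. In males it ran from -0.29 (without LKO male 6) to -0.019 (without control male 1) for mt-Co2 and from -0.48 (without control male 2) to -0.066 (without control male 6) for mt-Co3.

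**Figure D3:**
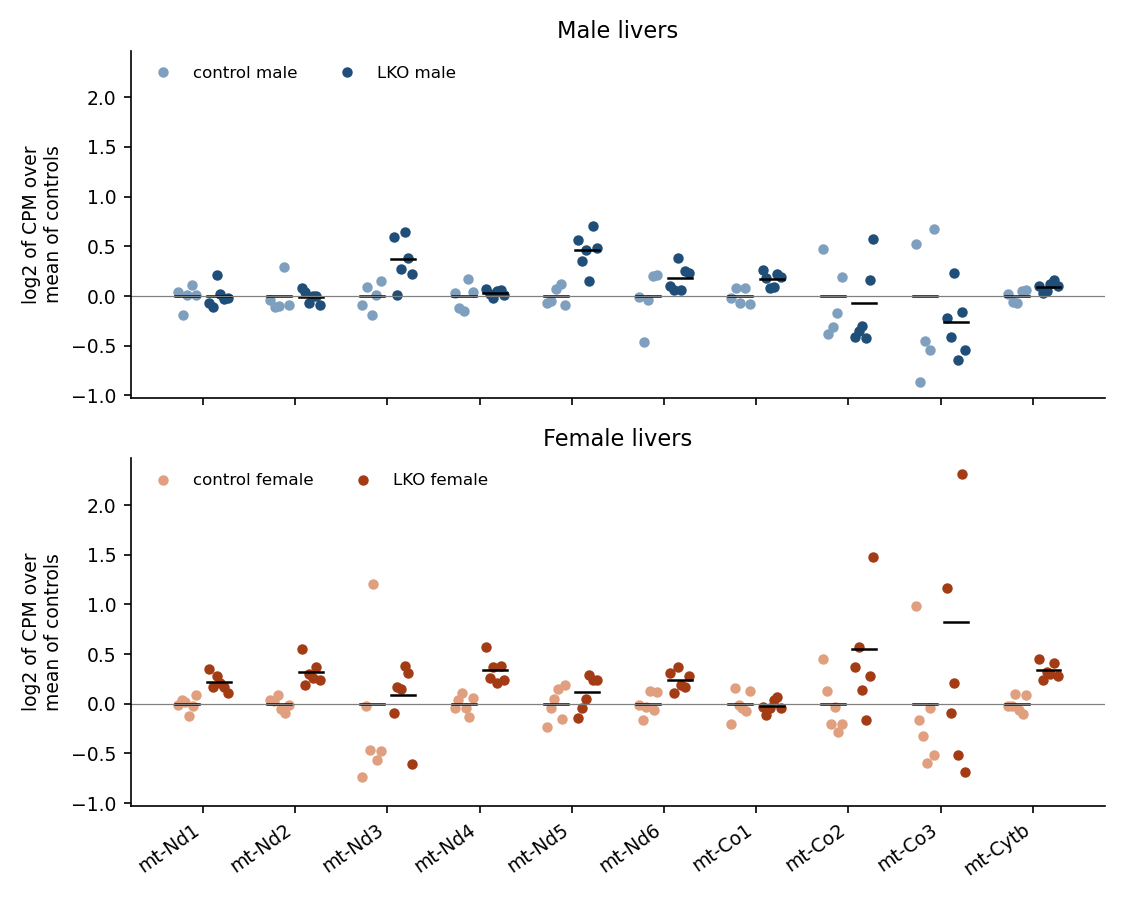
Level of each of the 10 members in each liver, as the log2 of its CPM over the mean CPM of the controls of the same sex, with males in the upper and females in the lower panel; points are livers and short bars are group means. In males mt-Nd5 is the member whose LKO livers all lie above the controls (1568 to 2304 CPM against 1328 to 1541), and in females mt-Nd1, mt-Nd2, mt-Nd4 and mt-Cytb are.

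Over the 10 members the median edgeR log2 difference was -0.0019 in males, with 5 positive and 5 negative, and 0.24 in females, with 9 positive and 1 negative. Over all genes tested the median was 0.01 in each sex. The split in males depended on the scaling and on 1 liver. With library size alone it was 7 positive and 3 negative, with a median of 0.06 for the members and 0.06 for all genes, and without control male 4 it was 8 positive and 2 negative, with a members' median of 0.08. The difference of differences, females minus males, was largest for mt-Co3 (log2 1.13, SE 0.60), mt-Co2 (0.65, SE 0.33), mt-Nd2 (0.36, SE 0.16) and mt-Nd4 (0.34, SE 0.15), and lowest for mt-Nd5 (-0.33, SE 0.15). It includes the values used in the choice and was not tested for the members.

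The other genes of chromosome MT were read beside the members. mt-Atp6, a subunit of the proton channel of ATP synthase, was at 88.2 ± 18.6 CPM in control males (SD, n = 5), 139 ± 57.5 in LKO males, 96.2 ± 20.9 in control females and 168 ± 62.5 in LKO females (SD, n = 6 each). Its nuclear copy Gm10925 was at 54.8 ± 5.53 CPM in control females (49.0 to 64.1) and 78.9 ± 11.8 in LKO females (67.0 to 101), without overlap (log2 0.48, SE 0.10, edgeR adjusted p = 0.028). The call of Gm10925 was lost without control female 1 or 5 or LKO female 3 or 4 (adjusted p = 0.0614, 0.0779, 0.0525 and 0.0587). Of 10 nuclear copies tested in females it was the 1 called, where edgeR called 1.42% of all genes. The log2 difference was positive for 7 of the 10 and negative for 3. Gm29216, the copy of mt-Co1, was at 99.2 ± 36.1 CPM in control and 50.8 ± 18.9 in LKO females (log2 -1.01, SE 0.29, edgeR adjusted p = 0.106). The ribosomal RNA mt-Rnr1 averaged 513 CPM in control and 415 in LKO males, and 581 in control and 513 in LKO females. mt-Rnr2 averaged 542 and 538 CPM in males and 689 and 642 in females. With all genes of chromosome MT counted, the share of the library was 4.62% in control males, 4.96% in LKO males, 4.34% in control females and 4.89% in LKO females. Of 19 transfer RNAs listed, 11 passed the filter on low counts. mt-Te, which lies between mt-Nd6 and mt-Cytb, was at 20.04 ± 4.61 CPM in control males (SD, n = 5), 31.1 ± 6.88 in LKO males, 21.7 ± 1.15 in control females and 32.03 ± 5.38 in LKO females (SD, n = 6 each). mt-Tp, the most abundant, was at 85.3 ± 22.9, 81.6 ± 8.55, 75.3 ± 11.6 and 88.0 ± 14.6 CPM in the same order. In LKO females mt-Ty, mt-Tc, mt-Tn and mt-Tw had lower means than in controls, and the rest of the 11 had higher means. The median log2 difference of the 11 was 0.53 in males and 0.19 in females. Between control females and males edgeR called mt-Ty (log2 0.82, SE 0.22, adjusted p = 0.0224) and mt-Tn (log2 0.61, SE 0.17, adjusted p = 0.0233) higher in females. These were 2 of the 11, where edgeR called 18% of all genes, 8.8% higher and 9.2% lower. At an unadjusted p under 0.05 there were 6 of the 11, against 33.1% of all genes. DESeq2 called 2, against 8.68% of all genes higher and 9.48% lower. Between the sexes among LKO livers edgeR called none of the 11, against 12.4% of all genes. There, 0 were at an unadjusted p under 0.05, against 26.8% of all genes, and DESeq2 called 0, against 12.5%. The ribosomal and transfer RNAs lack the long tail that poly(T) beads select, so their counts describe carry-over as much as level.

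The members were also compared between the sexes, a contrast that the choice did not use. Among control livers, females were lower than males for mt-Nd2, mt-Nd4 and mt-Cytb, with all 6 females below the lowest of 5 males, and 5 of 6 females were above the highest male for mt-Nd5. The 3 members that did not overlap, all lower in females, compare with 5.36% of all genes tested that were lower without overlap and 4.43% that were higher. The edgeR log2 differences were -0.31 (SE 0.13, adjusted p = 0.109) for mt-Nd2, -0.31 (SE 0.12, adjusted p = 0.088) for mt-Nd4, -0.25 (SE 0.11, adjusted p = 0.125) for mt-Cytb and 0.31 (SE 0.11, adjusted p = 0.0717) for mt-Nd5. None passed 0.05. The other 6 members lay between -0.46 and 0.33, with adjusted p between 0.219 and 0.678.

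edgeR thus called 0 of the 10 members between control females and control males, where it called 18% of all genes. At an unadjusted p under 0.05 it counted 4 members, against 33.1% of all genes. DESeq2 called 3, mt-Nd5 higher and mt-Nd4 and mt-Cytb lower in females, against 8.68% of all genes higher and 9.48% lower. Some of these differences moved across the threshold with the setting. With library size alone as the scaling, edgeR called mt-Nd2, mt-Nd4, mt-Nd5 and mt-Cytb (adjusted p = 0.0265, 0.0184, 0.0461 and 0.0231), without control male 4 it called mt-Nd5 (adjusted p = 0.0172), and without control male 3 it called mt-Nd4 (adjusted p = 0.0442). Across the settings tried, the adjusted p for mt-Nd5 ran from 0.0172 to 0.166 and for mt-Nd4 from 0.0184 to 0.299, with the same direction in each.

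Among LKO livers the sexes were closer. The log2 differences of mt-Nd1, mt-Nd2, mt-Nd3, mt-Nd4, mt-Nd5, mt-Nd6, mt-Co1 and mt-Cytb lay between -0.05 and 0.11, and those of mt-Co2 and mt-Co3 were 0.32 (SE 0.25) and 0.67 (SE 0.44). edgeR called 0 of 10 members, with adjusted p from 0.355 to 0.962, and counted 0 at an unadjusted p under 0.05, as DESeq2 also called 0. Of all genes edgeR called 12.4%, DESeq2 called 12.5%, and 26.8% were at an unadjusted p under 0.05. Whether the sex difference itself differed between control and LKO livers is the same quantity as the difference of differences given above and was not tested for the members.

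**Figure D4:**
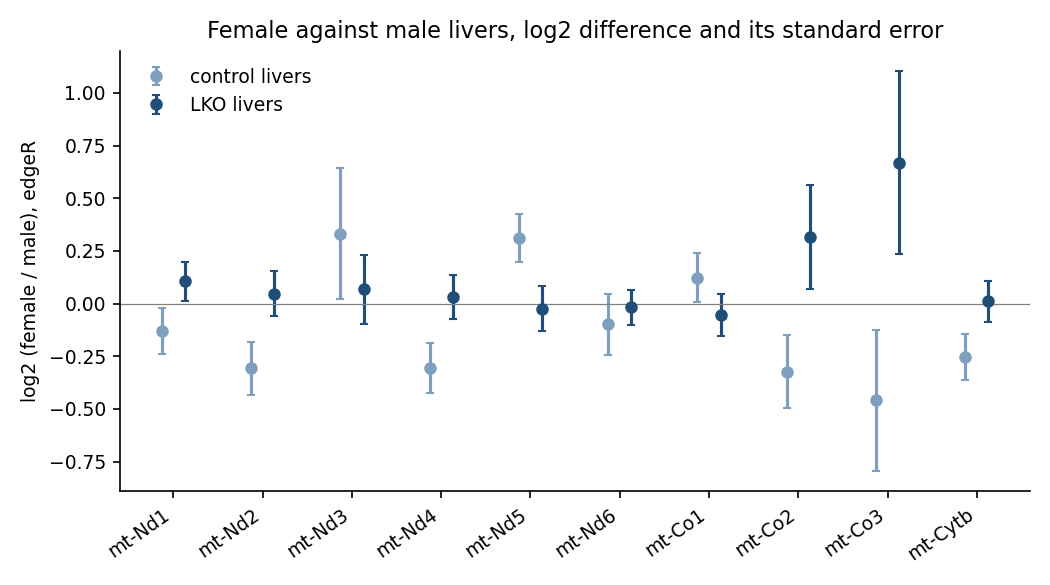
edgeR log2 difference of female against male livers for each member, with control and LKO livers side by side. Points are the estimates and bars are 1 SE. Among control livers mt-Nd2, mt-Nd4 and mt-Cytb lie at -0.31, -0.31 and -0.25 and mt-Nd5 at 0.31, and among LKO livers the same members lie between -0.02 and 0.05.

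Within groups, some members varied together from liver to liver. After each liver's log2 CPM was taken as a deviation from its group mean, mt-Nd4 correlated with mt-Cytb at r = 0.84 and with mt-Nd2 at r = 0.84 over the 23 livers. mt-Nd2 with mt-Cytb and mt-Nd1 with mt-Nd6 followed at r = 0.62, and mt-Nd5 with mt-Co1 at r = 0.55. These were the 5 of 45 pairs above 0.5, and the median pair was at 0.16 with 17 pairs negative. The pair of mt-Nd1 and mt-Nd6 rested on males (r = 0.81 in males and 0.16 in females), and that of mt-Nd2 and mt-Cytb largely on females (0.38 in males and 0.84 in females). mt-Nd4 held with mt-Cytb at 0.80 in males and 0.87 in females, and with mt-Nd2 at 0.80 and 0.90. The livers share their library totals, so these values describe the libraries and were given no p.

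**Figure D5:**
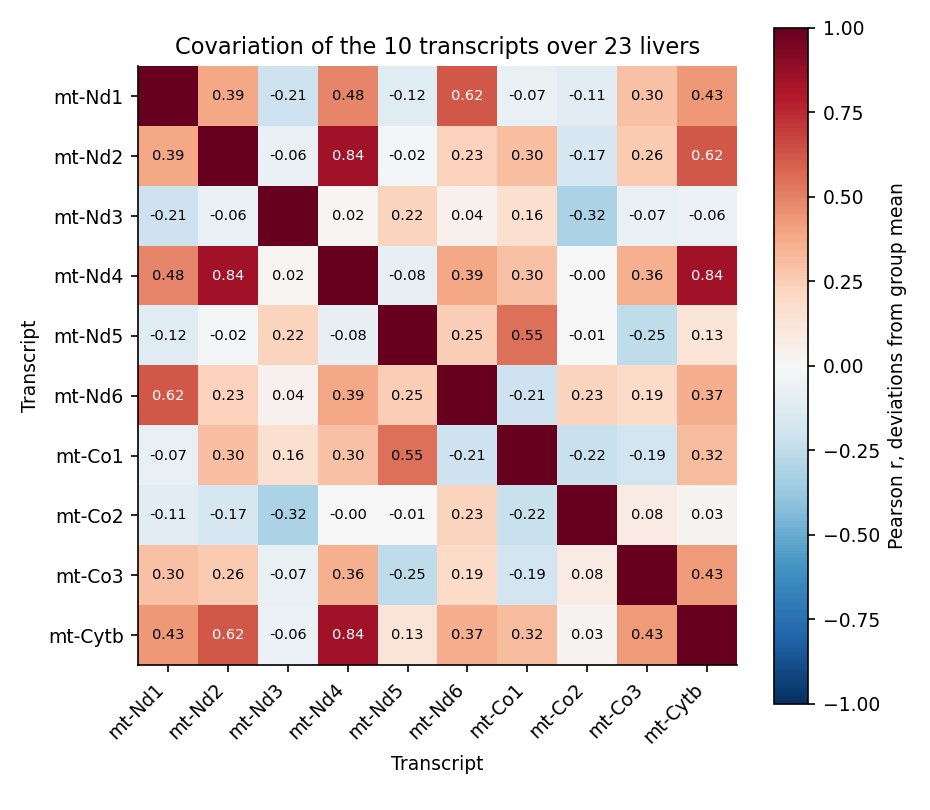
Pearson correlation between members over 23 livers, from deviations of log2 CPM from the group mean, with the members on both axes and the colour and the printed number giving r. The pairs of mt-Nd4 with mt-Cytb and with mt-Nd2, both at 0.84, are the strongest, and the lowest pair is mt-Nd3 with mt-Co2 at -0.32.

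The summed level of the 10 members was compared in the same way with 9880 protein-coding genes of at least 50 counts on average. The median gene was at r = -0.19, and all values are shares of the same library totals. The 5 genes most alike were Gpcpd1, a glycerophosphocholine phosphodiesterase, and Spry4, an inhibitor of receptor tyrosine kinase signalling, both at r = 0.64, Arhgap42 at 0.63, and the interferon-inducible GTPase Iigp1 and the nucleosome-binding Hmgn5 at 0.62. At the other end stood Lrrc29 at -0.82, Ppp1r16a at -0.79, Polrmt at -0.78, and Dtnb and Tcf25 at -0.77. Polrmt encodes the mitochondrial RNA polymerase, and its value was -0.87 over 11 males and -0.73 over 12 females.

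The nuclear genes that make, process and join the mitochondrial messages were read from 12 lists with 184 genes. Among them were 76 nuclear subunits and carriers of oxidative phosphorylation. Between LKO and control males edgeR called 0 of 182 genes tested, where it called 0.00724% of all genes. At an unadjusted p under 0.05 it counted 54 of the 182, against 12.5% of all genes. DESeq2 called 6, all lower in LKO and all among the 76. Of the 7374 genes to which it gave an adjusted p it called 1.45%, with 0.99% lower. Of the 76, 73 had a negative log2 difference and 3 a positive one, with a median of -0.23 against 0.01 over all genes tested and with 44 at an unadjusted p under 0.05. Among them was Ndufa12, an accessory subunit of complex I, at 28.1 ± 15.5 CPM in control males (SD, n = 5) and 12.98 ± 2.35 in LKO males (SD, n = 6), a log2 difference of -1.17 (SE 0.29, edgeR adjusted p = 0.245). Uqcrq of complex III was at 656 ± 64.9 and 539.7 ± 28.9 CPM (log2 -0.35, SE 0.09, edgeR adjusted p = 0.261), without overlap. The median of the 76 was -0.15 without control male 6. The members' split in males was 5 negative and 5 positive, and 2 negative and 8 positive without control male 4. The nuclear genes and the members were not tested against each other.

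In females the 76 nuclear genes had a median of -0.01, with 33 positive and 43 negative. edgeR called 0 of 181 genes of the 12 lists between LKO and control females, where it called 1.42% of all genes. It counted 9 at an unadjusted p under 0.05, against 15.6% of all genes. DESeq2 called 2 higher, where it called 3.64% of the 15235 genes to which it gave an adjusted p, with 2.05% higher. The 2 were Rexo2, a mitochondrial exonuclease that degrades short RNAs (log2 0.31, SE 0.08, edgeR adjusted p = 0.069), and Cycs, cytochrome c (log2 0.27, SE 0.07, edgeR adjusted p = 0.0758). The female minus male difference of the knockout effect was positive for 72 of the 76 genes, with a median of 0.23. edgeR called none of them, with 23 at an unadjusted p under 0.05, and DESeq2 called none. In the same test edgeR called 0% of all 14503 genes, with 12.9% (1874 genes) at an unadjusted p under 0.05, and DESeq2 called 0.532% (72 genes).

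Between the sexes some genes of the nuclear lists were called. Among control livers 19 of 182 genes were lower and 4 higher in females by edgeR, against 9.2% of all genes lower and 8.8% higher. With each liver left out in turn the 19 ran from 10 (without control male 6 or control female 5) and 12 (without control male 1 or control female 2 or 6) to 30 (without control male 2), and the 4 ran from 2 (without control male 6 or control female 6) to 7 (without control male 4). With the replicate number as a block they were 5 lower and 1 higher. Of the 19, 12 were among the 76 oxidative phosphorylation genes, 8 of complex I, 3 of complex IV and Cycs. That count of 12 ran from 6 to 22 when each liver was left out in turn, with 6 without control male 1 or 6 or control female 5 or 6, 7 without control female 2, and 22 without control male 2. It was 2 with the replicate number as a block, 24 with library size alone and 5 without the filter on low counts. Rexo2 was at 109 ± 10.6 CPM in control males (SD, n = 5) and 60.5 ± 6.67 in control females (SD, n = 6), a log2 difference of -0.82 (SE 0.09, edgeR adjusted p = 9.24e-05). Hsd17b10, a subunit of the enzyme that cuts the 5′ ends of mitochondrial transfer RNAs, was at 226 ± 33.4 CPM in control males and 144 ± 14.7 in control females (log2 -0.63, SE 0.12, edgeR adjusted p = 0.00356). Cox18, which inserts mt-Co2 protein into the inner membrane, had a log2 difference of -0.68 (SE 0.11, edgeR adjusted p = 0.00119), and Cycs of -0.51 (SE 0.07, edgeR adjusted p = 0.000639).

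Among LKO livers 8 of 181 genes were lower and 7 higher in females, against 6.51% and 5.89% of all genes. The 7 ran from 3 (without LKO male 2) to 12 (without LKO female 6) with each liver left out, with 4 without LKO female 2, 3 or 4 or LKO male 4, and it was 3 with library size alone or without the filter and 4 with the replicate block. The 8 ran from 7 to 12, the latter without LKO male 3. Rexo2 (log2 -0.54, edgeR adjusted p = 0.000131), Hsd17b10 (-0.46, edgeR adjusted p = 0.0136) and Cox18 (-0.53, edgeR adjusted p = 0.00194) were lower again. Of the 76 oxidative phosphorylation genes, the 1 called was Atp5g1, which encodes subunit c of ATP synthase, at 161 ± 5.28 CPM in LKO males and 215 ± 30.2 in LKO females (SD, n = 6 each; log2 0.45, SE 0.10, edgeR adjusted p = 0.0072). Ppargc1a, a coactivator of mitochondrial biogenesis, was higher in females among LKO livers (log2 0.91, SE 0.19, edgeR adjusted p = 0.00619) and among control livers (1.09, SE 0.29, edgeR adjusted p = 0.0225). The latter call was lost without control male 6 or control female 6 (adjusted p = 0.06 and 0.0516) and with the replicate number as a block (adjusted p = 0.114). Among control livers the edgeR log2 difference of females against males was negative for 66 of the 76 nuclear genes and 7 of the 10 members. Of all genes tested there, 50.5% were positive. The median of the 76 was -0.15, and -0.08 without control male 6. Among LKO livers 51 of the 76 and 7 of the 10 members were positive, against 50.9% of all genes. With library size alone 5 of the 10 members were positive there. The nuclear genes and the members were not tested against each other.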

How the data were processed

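Per the labels' protocols, RNA was selected with poly-T beads and copied from random hexamers into dUTP libraries. HISAT2 2.0.5 and mm39 are named per the submitters' processing notes. The counter, annotation and strand setting are not given in the sources used here. The authors deposited, for each sex, a table of gene counts, normalized counts (signal, each count divided by 1 factor per library within the table) and FPKM.

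CPM is a count over the library total of the table. Counts were tested across all genes with edgeR 4.0.16 (quasi-likelihood, TMM, Benjamini-Hochberg adjustment, threshold 0.05) in R 4.3.3, with DESeq2 1.42.0, and limma 3.58.1 on log2(FPKM + 1), as alternatives, and the code was tested on simulated data. LKO was compared with control within each table. The sex comparison joined the genes of both tables. Shares of all genes are of those that passed edgeR's filter on low counts, or for DESeq2 of those to which it gave an adjusted p. The latter numbered 7374 in males and 15235 in females for LKO against control. Between the sexes they numbered 16517 among control and 17019 among LKO livers. No columns lacked a sample, and no 2 of 55 within-group pairs of livers were identical.

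The members and lists were chosen with earlier results of these data known. The text names the 10 members, up to 4 genes per list and comparison, called genes first, and the 5 genes at each end of the likeness ranking. Sequences come from GENCODE M21 (GRCm38), in which the genes of chromosome MT have the positions of the deposited tables, and copies were found with BLAST 2.17.0. Replicate numbers are shared between groups, but same-numbered livers did not deviate together in every pair (r from -0.27 to 0.35), so the fits carry no block.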

Additional observations from a re-analysis of the deposited data

Results flagged for a closer look

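In 6 of 44 combinations of a member, or of their sum, with a group, 1 liver lay further from the others of its group than Dixon's 95% limit allows, and chance alone marks about 1 in 20 groups. All 6 were the highest liver of the group. Among the members with high counts, mt-Nd1 was at 7536 CPM in LKO male 3, where the other LKO males ran from 6025 to 6564, and mt-Nd2 was at 7265 CPM in control male 4, where the other control males ran from 5490.2 to 5791. Control male 4 was also the control male with the highest summed share. The other 4 concern the members with a nearly whole nuclear copy. mt-Nd3 was at 24.4 CPM in control female 4 (6.36 to 10.4 in the others), and mt-Co2 at 368 CPM in LKO female 6 (118 to 196 in the others). mt-Co3 was at 195 CPM in control female 1 (64.8 to 95.5 in the others) and at 487 CPM in LKO female 5 (61.2 to 219.9 in the others). What set these livers apart was not tested.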

How the results depend on the processing

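The LKO minus control difference of the summed share, 7.48% in males and 13.2% in females, stayed positive under all alternatives. It was 2.31% on normalized counts and 2.76% with TMM-scaled totals in males, and 21.5% without mt-Nd2, mt-Co1, mt-Co2 and mt-Co3 in females. Leaving out 1 liver gave 6.28 to 9.89% and 11.8 to 14.8%. Chosen after seeing the data, leaving out mt-Nd3, mt-Co2 and mt-Co3 gave 7.60% and 12.98%, and adding the chromosome 1 copies gave 7.36% and 13.1%. Genes called between LKO and control males, 1 by edgeR, were 2 with library size alone, 2 without a filter, 3 with at least 10 counts in every library and 107 by DESeq2, and 1 to 2 with 1 liver left out. In females 194 became 554 by DESeq2 and 87 to 233 with 1 liver left out. Counts between the sexes ran from 1766 to 2947 among control and from 1267 to 1893 among LKO livers with 1 liver left out. The female minus male difference of the knockout effect went from 0 to 72 by DESeq2.

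Sex differences of members that changed sign were all uncalled. Among control livers with 1 liver left out, mt-Nd3 ran from -0.10 to 0.44 and mt-Nd6 from -0.21 to 0.0078. Among LKO livers, library size alone gave mt-Nd4 -0.0072 and mt-Cytb -0.027, and leaving out 1 liver gave -0.033 to 0.091 for mt-Nd2, -0.048 to 0.076 for mt-Nd4, -0.063 to 0.041 for mt-Nd5, -0.059 to 0.022 for mt-Nd6 and -0.042 to 0.043 for mt-Cytb. The causes were not tested.

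With the replicate number as a block, 2 genes were called in males, 334 in females, 991 between sexes among control and 1512 among LKO livers (2466 and 1708 without it). The numbers are shared labels only, since r between same-numbered livers was above 0.1 in some pairs and not in others. Depth limits mt-Nd3 most, at 109 to 390 counts per liver.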
